A study of Arabidopsis thaliana with 18 samples.

Results

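The 9 genes described here are the core of gibberellin perception in Arabidopsis: the 5 DELLA repressors GAI, RGA, RGL1, RGL2 and RGL3, the 3 gibberellin receptors GID1A, GID1B and GID1C, and SLY1. They were taken by name and not by a rule on their values, though earlier results of these data were known. Each had 1 of the 27827 probe sets of the arrays, AT1G14920_at for GAI, AT2G01570_at for RGA, AT1G66350_at for RGL1, AT3G03450_at for RGL2, AT5G17490_at for RGL3, AT3G05120_at for GID1A, AT3G63010_at for GID1B, AT5G27320_at for GID1C and AT4G24210_at for SLY1. Transcript signals were measured in dry seed, collected at harvest, of abci20 plants, a mutant in the Col-0 ecotype, and of Col-0 plants. ABCI20 encodes a member of the ABC transporter superfamily, and the series asks about its part in seed maturation; the labels do not give the kind of mutation, the allele or a second mutant line. Polysomal RNA (messages carrying several ribosomes), monosomal RNA (messages carrying a single ribosome) and total RNA were profiled in abci20 and in Col-0, which made 6 groups with 3 arrays apiece, or 18 arrays. Each replicate was seed from a bulk of plants, so within a genotype the 3 fractions probably share their bulks.

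Gibberellin promotes germination and growth by removing DELLA proteins. The hormone binds a GID1 receptor, the loaded receptor binds a DELLA, and SLY1, an F-box protein, brings the complex to an SCF ubiquitin ligase that marks the DELLA for breakdown. DELLAs restrain germination until this happens, and RGL2 is the member best known for that role in Arabidopsis seeds. Much of this control acts on the proteins, whereas the arrays measured RNA. In whole seeds, fewer cells of a type and less RNA per cell cannot be told apart.

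The values were RMA signals on a log2 scale, so a difference of 1 is a 2-fold difference. The deposited arrays did not share one distribution: their medians were 3.16 to 3.32 in polysomal and monosomal RNA and 3.32 to 3.69 in total RNA. A fraction difference is therefore one of deposited signals, not of numbers of molecules. Signals were compared within a probe set only, since different probe sets respond differently. The 9 dry-seed storage and oil body markers lay between percentiles 94.3 and 99.99 of each array. Between genotypes 0 markers of seed coat, endosperm, green leaf or dry seed passed limma's test in any fraction. Of all probe sets 0.442%, 1.83% and 3.35% passed there in polysomal, monosomal and total RNA. However, the seed coat marker MUM2 passed in total RNA without abci20 total replicate 1 (0.74, adjusted p = 0.0481, background 9.49%). EPR1, the endosperm marker with a high signal, lay above percentile 99 in all 18 arrays, whereas the early endosperm markers ZOU, MEA, FIS2, FWA and AGL62 lay between percentiles 1.02 and 56.0. ABCI20 itself was lower in abci20 in every fraction (by 2.32, 2.40 and 2.31 log2 in polysomal, monosomal and total RNA; limma adjusted p = 0.00406, 0.00195 and 0.00151). With only the compared groups fitted, the same differences had adjusted p of 0.0556 in monosomal and 0.185 in total RNA. The array abci20 total replicate 1 stood apart. Across probe sets it correlated with the other 2 abci20 total arrays at r between 0.893 and 0.915, but with the abci20 polysomal arrays at 0.950 to 0.953. All 9 genes of the group lay outside the range of the other 2 abci20 total arrays on it, as did 78.5% of all probe sets. Of the 9, 5 lay both outside that range and inside that of the abci20 polysomal and monosomal arrays, as did 49.6% of all probe sets. Differences below that use total RNA of abci20 are given with and without this array, whereas counts of arrays that do not overlap use all arrays.

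**Figure D1:**
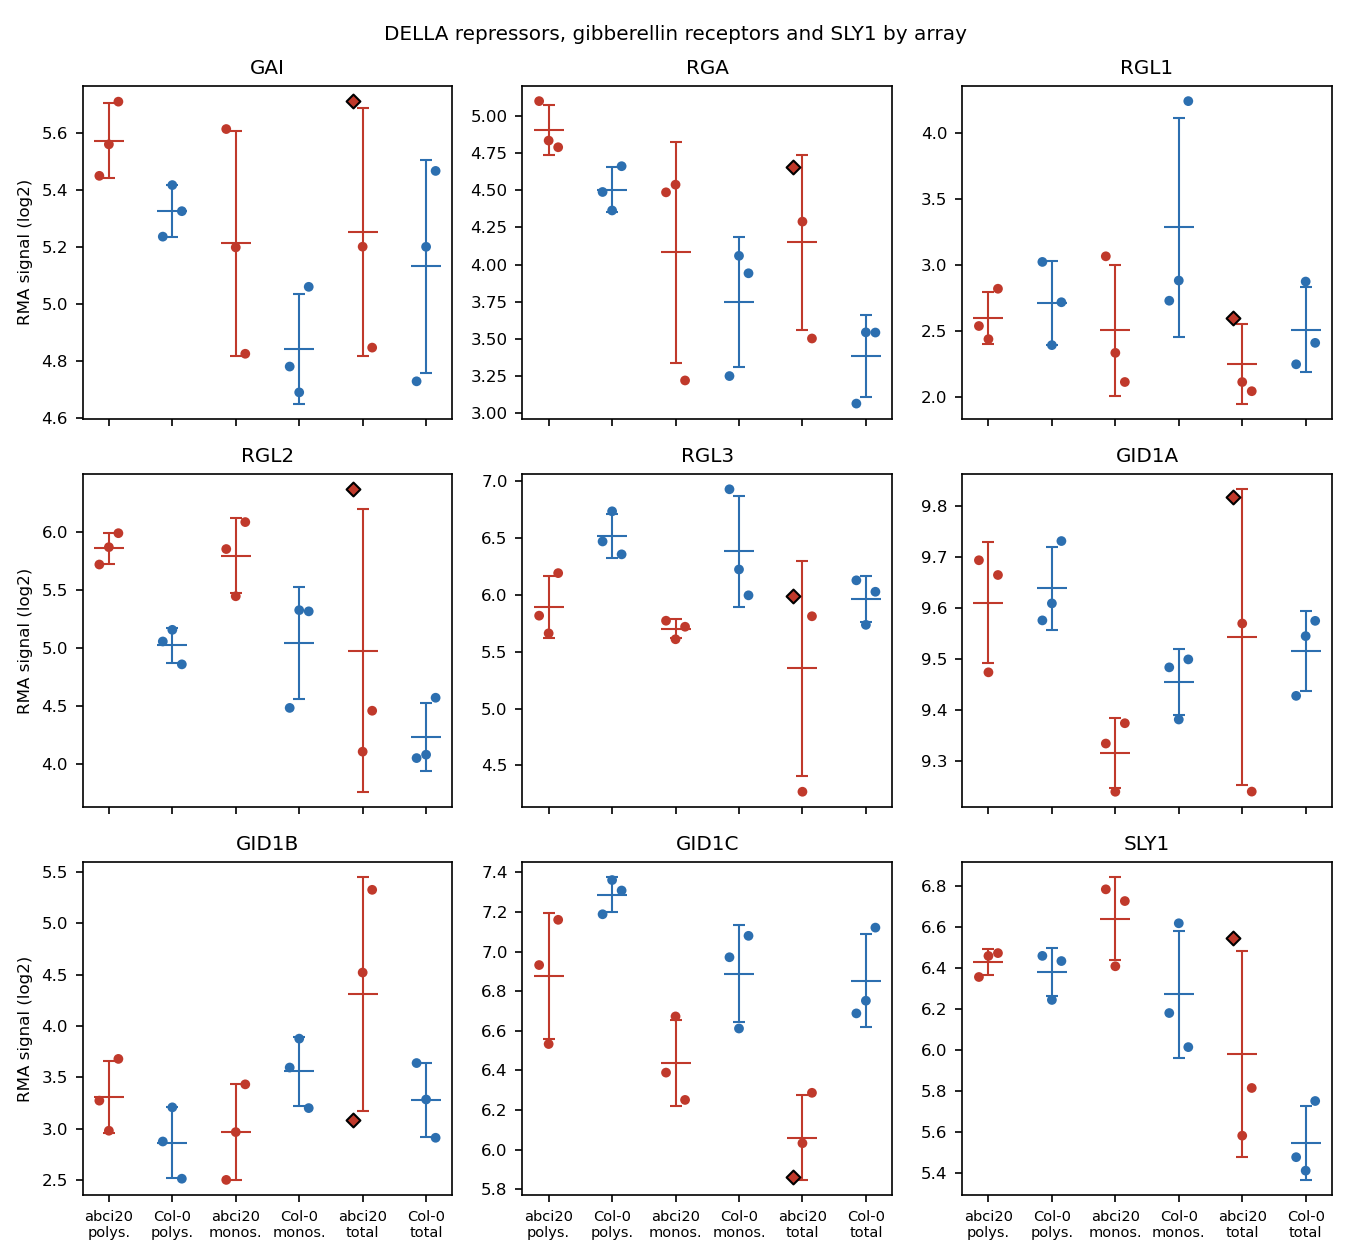
RMA signal (log2, vertical axis, scaled per panel) of each gene on every array, by genotype and RNA fraction. Red points are abci20, blue points are Col-0, horizontal lines are group means with bars of 1 SD (n = 3), and black-edged diamonds mark abci20 total replicate 1. RGL2 is higher in abci20 than in Col-0 in all polysomal and monosomal arrays, GID1C is lower in abci20 than in Col-0 in polysomal and total RNA, and GID1B is high in 2 abci20 total arrays.

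RGL2, the DELLA most closely tied to germination, had the largest genotype difference of the 5 DELLAs in polysomal RNA. Its polysomal signals were 5.72, 5.87 and 5.99 in abci20, against 5.06, 5.16 and 4.86 in Col-0. Its monosomal signals were 5.85, 5.45 and 6.08 in abci20, against 4.48, 5.33 and 5.32 in Col-0. Every abci20 array thus exceeded every Col-0 array in both ribosome-bound fractions. In total RNA the signals were 6.37, 4.11 and 4.46 in abci20, against 4.05, 4.08 and 4.57 in Col-0, and the genotypes overlapped. The fitted differences, abci20 minus Col-0, were 0.83, 0.75 and 0.74 in polysomal, monosomal and total RNA (SE 0.417 each), and none passed the test (limma adjusted p = 0.685, 0.431 and 0.388). The total RNA value rested on 1 array: without abci20 total replicate 1 it was 0.05 (adjusted p = 0.937). In polysomal RNA, the 6 compared arrays fitted alone gave the same 0.83 with an adjusted p of 0.0426, as the spread then came from those 6 arrays alone.

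RGL3, a DELLA known for its link to jasmonate signalling, differed in the opposite direction. Its polysomal signals were 5.82, 5.66 and 6.19 in abci20, against 6.47, 6.73 and 6.36 in Col-0. Its monosomal signals were 5.77, 5.61 and 5.72 in abci20, against 6.93, 6.22 and 5.996 in Col-0. The genotypes did not overlap in either fraction, with abci20 below Col-0. In total RNA the signals were 5.99, 4.27 and 5.81 in abci20, against 6.13, 5.74 and 6.03 in Col-0. The differences of -0.63, -0.68 and -0.61 in polysomal, monosomal and total RNA did not pass the test (limma adjusted p = 0.764, 0.388 and 0.405). The total RNA difference without abci20 total replicate 1 was -0.92 (adjusted p = 0.114).

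GAI and RGA, the DELLAs that mainly restrain stem and root growth, had their highest group means in abci20 polysomal RNA. RGA gave polysomal signals of 5.10, 4.83 and 4.79 in abci20, against 4.49, 4.36 and 4.66 in Col-0. GAI gave polysomal signals of 5.45, 5.56 and 5.71 in abci20, against 5.24, 5.42 and 5.32 in Col-0. Neither gene's polysomal values overlapped between genotypes, yet the differences were small, at 0.40 for RGA (SE 0.343) and 0.25 for GAI (SE 0.255). In total RNA RGA had 4.66, 4.29 and 3.50 in abci20, against 3.07, 3.54 and 3.54 in Col-0, a difference of 0.77 (95% interval 0.04 to 1.49, limma adjusted p = 0.253). Leaving out abci20 total replicate 1 gave 0.51 (adjusted p = 0.409). GAI in total RNA differed by 0.12, and by -0.11 without that array. RGL1, the remaining DELLA, had low signals of 2.05 to 4.24 over all arrays. The 4.24 was 1 Col-0 monosomal array, the others there being at 2.73 and 2.88, and the monosomal difference of RGL1 was -0.78 (95% interval -1.52 to -0.04, limma adjusted p = 0.2999).

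The receptors did not move as a group. GID1C had the most separated genotypes of the 3, with abci20 below Col-0. Its total RNA signals were 5.86, 6.03 and 6.29 in abci20, against 6.69, 6.75 and 7.12 in Col-0. Its polysomal signals were 6.93, 6.53 and 7.16 in abci20, against 7.19, 7.36 and 7.31 in Col-0. Neither fraction overlapped, whereas 1 abci20 monosomal array (6.67) lay above the lowest Col-0 one (6.61). The total RNA difference was -0.79 (SE 0.217, 95% interval -1.25 to -0.34), just short of the threshold at a limma adjusted p of 0.054 (-0.69 and adjusted p = 0.0723 without abci20 total replicate 1), and the polysomal and monosomal differences were -0.41 and -0.45 (adjusted p = 0.725 and 0.346). The total RNA difference passed in 3 alternatives: with each array centred on its median (-0.93, adjusted p = 0.03), with only the brighter probe sets (adjusted p = 0.0196), and with a variance trend and robust estimation (adjusted p = 0.022). Leaving out any 1 of the 6 compared arrays left it between -0.91 and -0.66, with adjusted p from 0.0515 to 0.204.

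GID1B, a receptor whose Arabidopsis protein binds gibberellin with particularly high affinity, was the gene that turned on the array standing apart. Its total RNA signals were 3.08, 4.52 and 5.33 in abci20, against 3.64, 3.28 and 2.91 in Col-0. The low abci20 value belongs to replicate 1, and the other 2 exceeded all Col-0 total arrays. With all arrays the difference was 1.03 (SE 0.423, limma adjusted p = 0.206). Leaving that array out gave 1.65, 3.13-fold, and passed (SE 0.339, adjusted p = 0.00729, n = 2 against 3), as it did with array weights (1.63, adjusted p = 0.0226). Over the 6 compared arrays left out in turn the difference ran from 0.52 to 1.65. The adjusted p ran up to 0.578, and 5 of these 6 fits did not pass. In polysomal and monosomal RNA the differences were 0.45 and -0.59 and the genotypes overlapped. GID1A, the third receptor, varied least of the 9 genes, between 9.24 and 9.82 over all arrays. Its genotype differences were -0.03, -0.14 and 0.03 in polysomal, monosomal and total RNA, with all 95% intervals inside -0.52 to 0.40, and the total RNA difference was -0.11 without abci20 total replicate 1. The small monosomal difference separated the genotypes, at 9.33, 9.24 and 9.37 in abci20 against 9.48, 9.38 and 9.50 in Col-0 (adjusted p = 0.802).

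SLY1, the F-box protein, had polysomal signals of 6.35, 6.46 and 6.47 in abci20, against 6.46, 6.24 and 6.43 in Col-0. Its monosomal signals were 6.78, 6.41 and 6.72 in abci20, against 6.18, 6.62 and 6.01 in Col-0. Its total RNA signals were 6.54, 5.58 and 5.81 in abci20, against 5.48, 5.41 and 5.75 in Col-0. The genotypes overlapped in all 3 fractions, and the differences were 0.05, 0.37 and 0.43 (limma adjusted p = 0.9997, 0.526 and 0.376). The total RNA value rested largely on abci20 total replicate 1 and was 0.15 without it (adjusted p = 0.712).

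**Figure D2:**
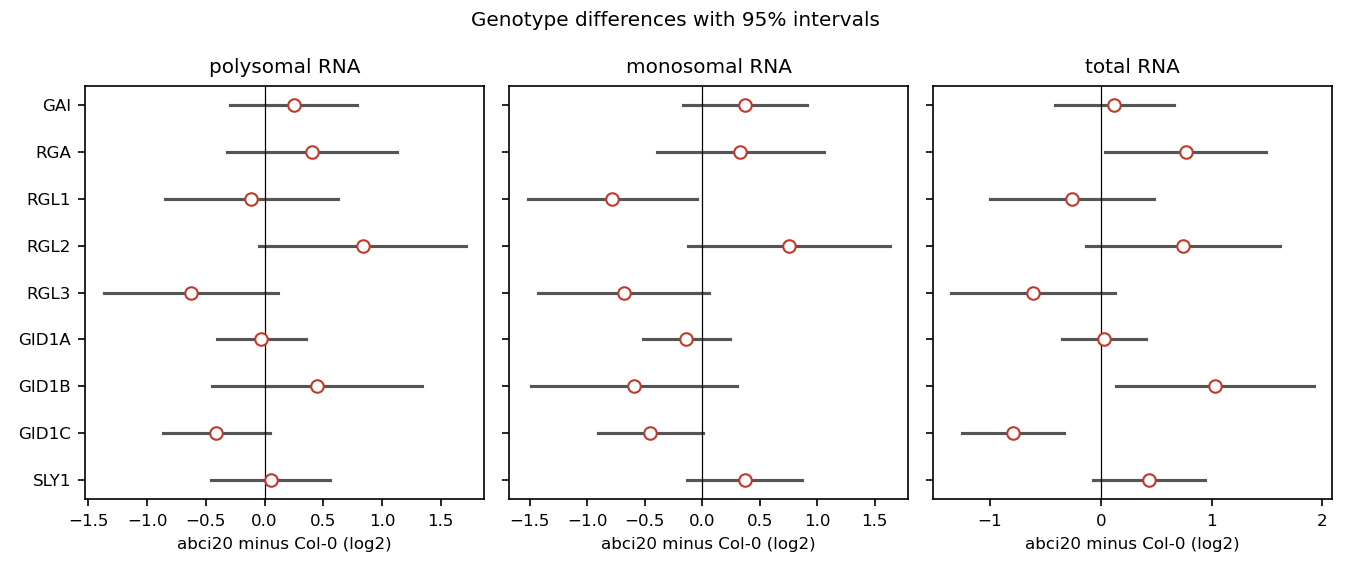
Fitted difference abci20 minus Col-0 (log2, horizontal axis) of each gene in polysomal, monosomal and total RNA, with 95% intervals (n = 3 arrays a group). Open points did not pass limma's test after adjustment, which holds for all 27 differences shown; RGL2 lies to the right of 0 and RGL3 and GID1C to the left in all 3 panels.

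Counted over the group, 0 of the 9 genes passed limma's test (adjusted p under 0.05 over 27827 probe sets) between genotypes in polysomal, monosomal or total RNA. The background shares of all probe sets that passed were 0.442%, 1.83% and 3.35%. At an unadjusted p under 0.05, 0, 1 and 3 genes passed: RGL1 in monosomal RNA, and RGA, GID1B and GID1C in total RNA. Of all probe sets 7.95%, 14.9% and 17.5% did the same. The genotypes did not overlap for 5 genes in polysomal RNA (GAI, RGA and RGL2 higher, RGL3 and GID1C lower in abci20), where 21.3% of all probe sets did the same. They did not overlap for 3 genes in monosomal RNA (background 19.8%) and for 1 gene in total RNA (background 16.8%). The group's median difference was 0.05, -0.14 and 0.12, against -0.01, -0.03 and 0.01 over all probe sets, and in total RNA it was -0.11 without abci20 total replicate 1, against -0.05 over all probe sets. When abci20 total replicate 1 was left out, GID1B was the 1 gene that passed in total RNA, where 9.49% of probe sets passed, and 0 passed in polysomal and monosomal RNA (background 0.773% and 3.43%).

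**Figure D3:**
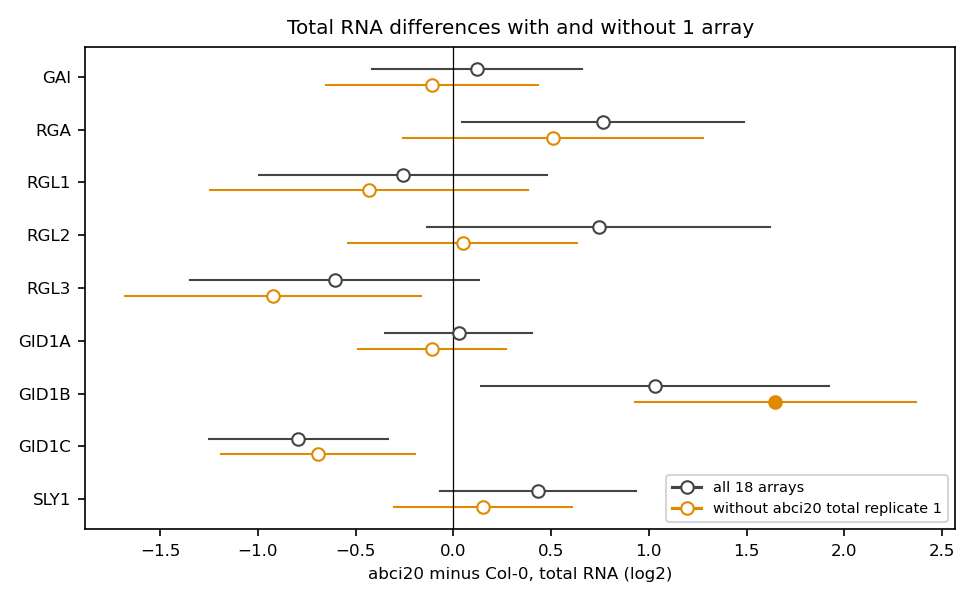
Fitted difference abci20 minus Col-0 in total RNA (log2, horizontal axis) of each gene, with 95% intervals, from all 18 arrays (dark) and without abci20 total replicate 1 (orange). The filled point, GID1B at 1.65, passed limma's test; RGL2 lies at 0.74 with the array and at 0.05 without it.

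Averaging the 3 fractions of a genotype and replicate number gave 3 values for each genotype, an analysis chosen after the data had been seen. It assumes that same-numbered arrays of a genotype share a bulk, which the labels do not state outright. RGL2 then had 5.98, 5.14 and 5.51 in abci20, against 4.53, 4.85 and 4.92 in Col-0, a difference of 0.78 (SE 0.215, limma adjusted p = 0.0708). GID1C had 6.39, 6.41 and 6.57 in abci20, against 6.95, 6.91 and 7.17 in Col-0, a difference of -0.55 (SE 0.149, adjusted p = 0.0643). RGL3 had 5.86, 5.18 and 5.91 in abci20, against 6.51, 6.23 and 6.13 in Col-0, a difference of -0.64 (adjusted p = 0.122). With abci20 total replicate 1 left out of its mean, the differences were 0.71 for RGL2 (adjusted p = 0.0766), -0.46 for GID1C (adjusted p = 0.138) and -0.66 for RGL3 (adjusted p = 0.120). The genotypes did not overlap for these 3 genes and SLY1, 4 of the 9, where 23.8% of all probe sets did not overlap, and 0 of the 9 passed the test (background 4.67%). With the polysomal and monosomal arrays alone, RGL2 was higher in abci20 by 0.79 and passed (SE 0.181, adjusted p = 0.0439), where 3.33% of all probe sets passed. RGL3 differed by -0.66 in that comparison (adjusted p = 0.0832). That choice was also made after the data had been seen, and no replicate was left out in turn there. For the mean of the 3 fractions, leaving out each of 6 replicates in turn put RGL2 between 0.56 and 0.98. It passed in none of these fits (limma adjusted p = 0.0619 to 0.222).

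Fractions were compared within each genotype next. SLY1 was 0.83 higher in polysomal than in total RNA of Col-0 (SE 0.238, 1.78-fold, limma adjusted p = 0.0441). It was the 1 gene of the group that passed there, where 7.13% of all probe sets passed. This call did not hold with a replicate block (adjusted p = 0.0515), after quantile normalization (0.56, adjusted p = 0.172), or when any of 5 of the 6 compared arrays was left out (adjusted p up to 0.138, and 0.0486 without Col-0 total replicate 3). In abci20 the SLY1 difference was 0.45 (adjusted p = 0.186), and 0.73 without abci20 total replicate 1 (adjusted p = 0.0163). Monosomal SLY1 signals in Col-0 were likewise all above the total RNA signals (difference 0.72, adjusted p = 0.0782).

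GID1C was 0.81 higher in polysomal than in total RNA of abci20 (SE 0.217, 1.76-fold, limma adjusted p = 0.0149), with no overlap between the arrays, and was the 1 gene of the group that passed there (background 22.1%). In Col-0 its polysomal arrays also lay above its total RNA arrays, by 0.43 (adjusted p = 0.231). The abci20 call ended when only the compared groups were fitted (adjusted p = 0.0881), after quantile normalization (0.48, adjusted p = 0.202), without abci20 polysomal replicate 1 (adjusted p = 0.0557) and without replicate 3 (adjusted p = 0.0709). Without abci20 total replicate 1 the difference was 0.72 (adjusted p = 0.0278).

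GID1B ran the other way. It was 1.34 lower in monosomal than in total RNA of abci20 (a fitted difference of -1.34, SE 0.423, limma adjusted p = 0.042), the 1 gene of the group that passed there, where 14.7% of all probe sets passed. Its monosomal signals in abci20 were 2.50, 2.97 and 3.43, against total RNA signals of 3.08, 4.52 and 5.33, so that the arrays overlapped. The adjusted p ran from 0.000579 without abci20 total replicate 1 (-1.96) to 0.208 without replicate 3 (-0.83), and it was 0.129 without replicate 2. It was 0.142 and 0.0953 without abci20 monosomal replicates 1 and 2, 0.213 when only the compared groups were fitted, 0.063 after quantile normalization, and 0.0616 with each array centred on its median. In Col-0 the monosomal minus total difference of GID1B was 0.28 (adjusted p = 0.731).

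RGA, RGL2 and RGL3 had fitted polysomal minus total differences above 0.5 in both genotypes. RGA had 0.76 in abci20 (limma adjusted p = 0.121) and 1.12 in Col-0 (adjusted p = 0.0565), and its polysomal arrays lay above all total and all monosomal arrays of the same genotype in both. RGL2 had 0.88 in abci20 (adjusted p = 0.138) and 0.79 in Col-0 (adjusted p = 0.256). RGL3 had 0.53 in abci20 (adjusted p = 0.290) and 0.56 in Col-0 (adjusted p = 0.353). These differences did not pass with all arrays. Without abci20 total replicate 1, RGL2, RGA, GID1C and SLY1 were higher and GID1B was lower in polysomal than in total RNA of abci20 (background 32.9%), with RGL2 at 1.58 (adjusted p = 0.000611), RGA at 1.01 (adjusted p = 0.0419) and GID1B at -1.61 (adjusted p = 0.00218). The same change, which lowers the shared spread, gave calls for RGA, RGL2 and SLY1 in Col-0 (background 13.1%), at unchanged differences. In monosomal minus total RNA it gave calls for RGL2 and SLY1, both higher, in abci20 and in Col-0, and for GID1B, lower, in abci20 (background 27.5% in abci20 and 11.4% in Col-0). It gave 0 calls in polysomal minus monosomal RNA (background 14.4% in abci20 and 17.2% in Col-0).

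Over the group, the median polysomal minus total difference was 0.45 in abci20 and 0.43 in Col-0, against 0.02 and 0.01 over all probe sets. In abci20 it was 0.72 without abci20 total replicate 1, against 0.12 over all probe sets, and RGL3 was then at 0.85 (adjusted p = 0.0783). With all arrays, the 13913 brighter probe sets (highest group mean above its median) had a median of 0.38 in abci20. The group's 0.45 there was thus near that of bright probe sets in general. Upper quartiles of the abci20 arrays were 5.78 to 5.83 in polysomal and 5.40 to 5.61 in total RNA. For Col-0 they were 5.76 to 5.85 and 5.505 to 5.52. The arrays did not overlap for 2 genes in abci20, RGA and GID1C, and for 6 genes in Col-0, all higher in polysomal RNA, where 19.4% and 20.4% of all probe sets were higher without overlap. Between polysomal and monosomal RNA 0 genes passed in abci20 (background 10.8%) or Col-0 (background 12.5%). At an unadjusted p under 0.05, RGA alone passed there, at 0.83 in abci20 and 0.75 in Col-0, where 25.4% and 29.4% of all probe sets passed. The arrays did not overlap for 2 genes in abci20 (background 37.1%) and for 4 in Col-0 (background 39.2%). Between monosomal and total RNA of Col-0, 0 genes passed (background 6.65%), and 2 did at an unadjusted p under 0.05 (background 23.3%). The arrays did not overlap there for 0 genes in abci20 (background 25.2%) and for 1, SLY1, in Col-0 (background 27.5%). These comparisons share arrays, so they are not independent of each other.

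**Figure D4:**
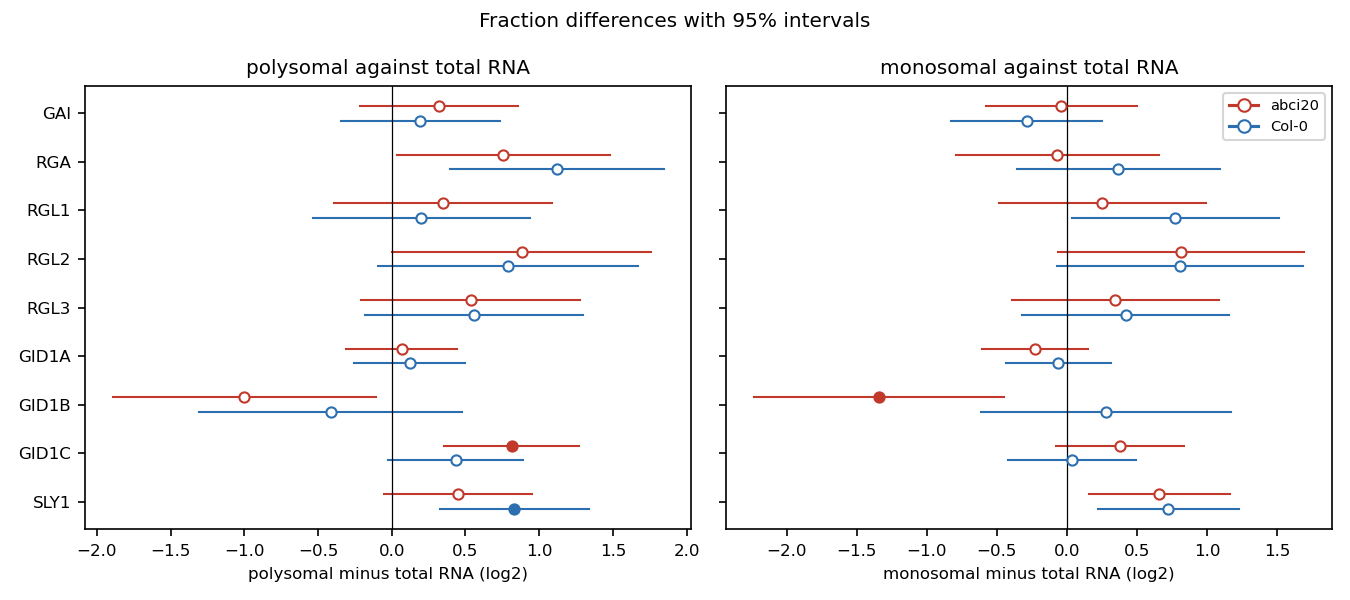
Fitted differences between RNA fractions (log2, horizontal axis) of each gene in abci20 (red) and Col-0 (blue), with 95% intervals (n = 3 arrays a group). Filled points passed limma's test: GID1C polysomal minus total and GID1B monosomal minus total in abci20, and SLY1 polysomal minus total in Col-0.

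The fraction differences themselves were then compared between genotypes. Under limma 0 of the 9 genes and 0 of all probe sets (0%) passed for polysomal minus total, polysomal minus monosomal or monosomal minus total RNA. The group had 0, 0 and 1 genes at an unadjusted p under 0.05, against 1263, 744 and 2270 probe sets (4.54%, 2.67% and 8.16%). That 1 gene was GID1B, whose monosomal minus total difference was 1.62 log2 lower in abci20 than in Col-0 (fitted at -1.62, SE 0.598, adjusted p = 0.527). Of 12 fits that each left out 1 array, it did not pass in 11 (adjusted p up to 0.693). With abci20 total replicate 1 left out its value was -2.24 and passed (SE 0.455, adjusted p = 0.0361), where 0.747% of all probe sets passed. The other fraction contrasts had 0 genes of the group in that fit (background 0.101% for polysomal minus total and 0% for polysomal minus monosomal RNA). So the calls in a single genotype above do not show that the genotypes differ in how these messages are distributed over the fractions.

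Within a gene, most of the 6 group means could not be ordered beyond their spread. Neighbouring groups in the order of means overlapped in all 5 steps for RGL1, RGL3, GID1B and SLY1, in 4 of 5 for GAI, RGA, RGL2 and GID1A, and in 3 of 5 for GID1C. RGL2 ran in the order abci20 polysomal, abci20 monosomal, Col-0 monosomal, Col-0 polysomal, abci20 total and Col-0 total. Its 1 step without overlap lay between abci20 monosomal RNA (5.79 ± 0.32, SD, n = 3) and Col-0 monosomal RNA (5.04 ± 0.48). GID1C was highest in Col-0 polysomal RNA (7.29 ± 0.09) and lowest in abci20 total RNA (6.06 ± 0.21). GID1B was highest in abci20 total RNA (4.31 ± 1.14) and lowest in Col-0 polysomal RNA (2.86 ± 0.35).

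Some members varied together over the 18 arrays, which share genotypes and fractions and, probably, bulks. Of the 36 pairs of members, 24 had a positive Pearson correlation. RGL2 and SLY1 had the highest, r = 0.859. For their deviations from the group means r was 0.813, and 0.519 without abci20 total replicate 1, where both genes were high. GAI and RGA had r = 0.746, with 0.701 for the deviations and 0.630 without that array. RGL3 and GID1C had r = 0.645 over the arrays, but 0.146 for the deviations and 0.351 without that array. GID1B had a negative r with all 8 other members. Its lowest was with GAI, at -0.50, with -0.79 for the deviations and -0.70 without that array. With RGL2 it had -0.39, and its deviations had -0.60 over all arrays but 0.14 without that array.

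The probe sets most like each member over the 18 arrays were ranked by Pearson r. For the DELLAs, RGA was most like AT3G05190 (r = 0.929) and ERD2B (r = 0.896), RGL2 most like ATL15 (r = 0.917) and AT3G08780 (r = 0.910), and RGL3 most like PAL4 (r = 0.935) and CYP97B3 (r = 0.889). GAI was most like AT5G11560 (r = 0.856) and AT3G13350 (r = 0.854), and RGL1 most like AT1G27890 and AT3G29797 (r = 0.838 each). For the receptors, GID1C was most like PEX10 (r = 0.939) and EXO70E1 (r = 0.935), GID1B most like AGP25 (r = 0.903) and AT3G20395 (r = 0.879), and GID1A most like AT3G02740 (r = 0.886) and STP4 (r = 0.862). SLY1 was most like AT5G59850 (r = 0.923) and AT2G37200 (r = 0.917).

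The genes around these 9 were followed in 4 lists. In the list of gibberellin synthesis and inactivation, 3 of 23 genes were higher and 0 lower in abci20 in total RNA (background 3.35%). GA20OX3, an enzyme of the late oxidation steps, was higher by 1.69 (SE 0.409, limma adjusted p = 0.0306). GA3OX3, which makes the active hormone, was higher by 1.65 (SE 0.339, adjusted p = 0.0133), and GA2OX2, which inactivates it, by 1.19 (SE 0.245, adjusted p = 0.0136). The genes that rose thus act in both making and removing the hormone. GA20OX3 had total RNA signals of 5.57, 5.20 and 4.09 in abci20, against 3.79, 3.03 and 2.98 in Col-0, with no overlap. GA3OX3 and GA2OX2 did not overlap in total RNA either, with abci20 higher. In monosomal RNA GA20OX3 was higher by 1.83 (adjusted p = 0.0297). GA2OX6, another inactivating enzyme, was lower there by 1.12 (a fitted difference of -1.12, adjusted p = 0.0358). In that fraction 1 of 23 was thus higher and 1 lower (background 1.83%). In polysomal RNA 0 of the 23 passed (background 0.442%), and 1, higher in abci20, did without abci20 total replicate 1 (background 0.773%). GA20OX3 had polysomal signals of 5.19, 5.69 and 4.72 in abci20, against 3.29, 3.60 and 3.08 in Col-0, with no overlap. Without abci20 total replicate 1, GA20OX3 in total RNA was at 1.38 (adjusted p = 0.0553). GA3OX3 at 1.90 (adjusted p = 0.00426) and GA2OX2 at 1.16 (adjusted p = 0.0148) passed in that fit (background 9.49%).

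Of 18 transcription factors that act with DELLAs, 1 was higher and 0 lower in abci20 in each fraction. The background was 0.442%, 1.83% and 3.35% in polysomal, monosomal and total RNA. PIL5, which restrains germination and is known to activate GAI and RGA directly, was higher by 1.25 in monosomal RNA (limma adjusted p = 0.0226) and by 1.05 in total RNA (SE 0.263, adjusted p = 0.0365). Its 9 abci20 signals ran from 6.76 to 7.45 and its 9 Col-0 signals from 5.58 to 6.54, without overlap in any fraction. GAI and RGA themselves did not pass in any fraction, as given above. SPT, another transcription factor of this list, was higher by 1.39 in polysomal RNA (SE 0.284, adjusted p = 0.0407). Its signals were 4.83, 4.77 and 4.49 in abci20 against 2.88, 3.74 and 3.31 in Col-0. Without abci20 total replicate 1, PIL5 in total RNA was at 0.90 (adjusted p = 0.056), and 0 of the 18 passed there (background 9.49%). Each of these 8 pathway calls was lost on leaving out any of at least 2 arrays in turn, with adjusted p up to 0.261. When only the compared groups were fitted, the SPT call held (adjusted p = 0.0216) and the other 7 did not, with adjusted p up to 0.377.

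Of 10 genes for the breakdown and modification of DELLAs, 0 passed between genotypes in any fraction. The same held for 10 gibberellin- or DELLA-responsive targets (background 0.442%, 1.83% and 3.35% in polysomal, monosomal and total RNA). The targets, which include XERICO and the GASA and expansin genes, had median differences of 0.28, 0.09 and 0.12 in polysomal, monosomal and total RNA.

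**Figure D5:**
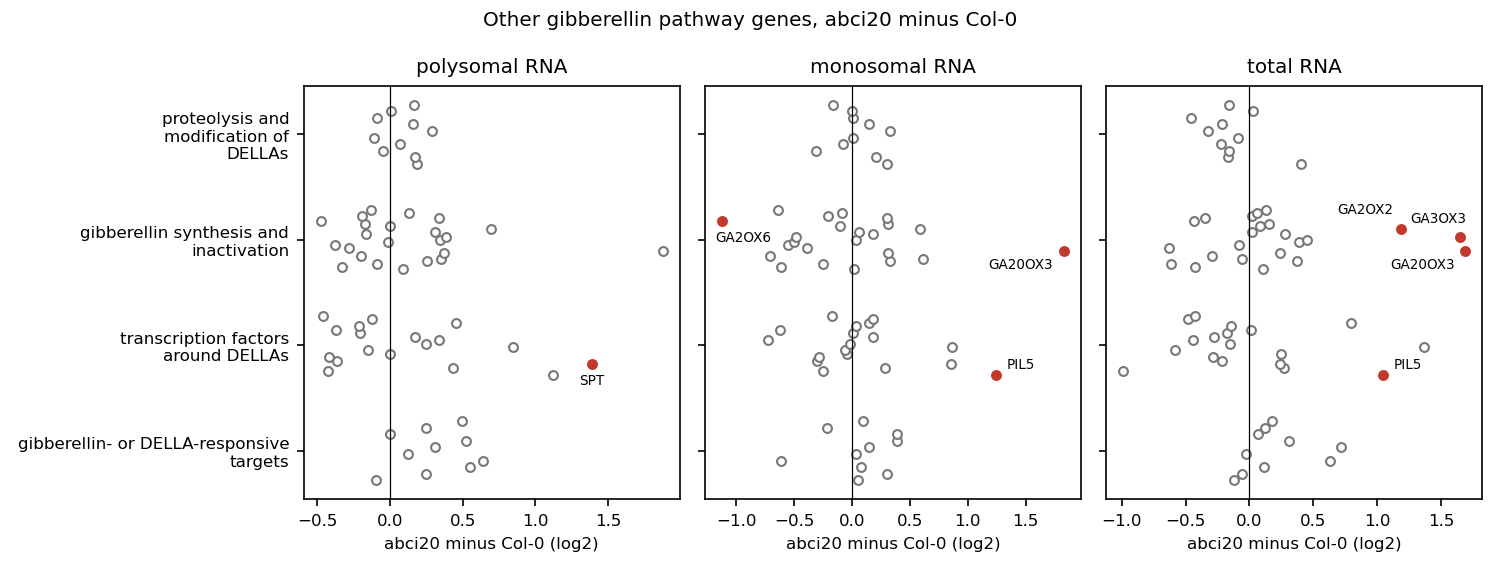
Fitted difference abci20 minus Col-0 (log2, horizontal axis) of each gene of the 4 pathway lists in polysomal, monosomal and total RNA. Filled red points passed limma's test after adjustment and are named; GA20OX3 and PIL5 passed in monosomal and total RNA, and open points did not pass.

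Between fractions, several partners of the DELLAs passed limma's test, and none of these values is a change between genotypes. SEC and SPY, sugar transferases that modify DELLA proteins, were higher in polysomal than in monosomal RNA, SEC by 1.37 in abci20 and 1.11 in Col-0, and SPY by 0.95 in abci20 and 0.98 in Col-0. CUL1, the scaffold of the SCF ligase that SLY1 joins, was higher there by 0.87 in abci20 and 0.72 in Col-0. In the list of breakdown and modification, 3 of 10 genes thus rose and 0 fell between polysomal and monosomal RNA in each genotype, where 10.8% (abci20) and 12.5% (Col-0) of all probe sets passed. In polysomal minus total RNA of abci20, 4 of 10 rose and 0 fell (background 22.1%), SEC at 0.84, SPY at 0.71, the SCF subunit RBX1 at 0.68 and the phosphatase TOPP4 at 1.15. It was 6 of 10 without abci20 total replicate 1 (background 32.9%), with CUL1 and ASK2 added. In Col-0, SEC rose at 0.73 and was the 1 gene of the list to pass (background 7.13%), TOPP4 being at 0.78 (adjusted p = 0.0927). In monosomal minus total RNA of abci20, RBX1 and ASK2, another SCF subunit, rose by 0.79 and 0.84, and SEC fell, at -0.54 (background 14.7%). Without that array SEC was at -0.48 (adjusted p = 0.0538) and SNE, a relative of SLY1, passed at 0.82, so that 3 rose and 0 fell (background 27.5%). In Col-0 0 of 10 passed there (background 6.65%), SPY being at -0.61 and CUL1 at -0.51, and 1 fell without that array (background 11.4%).

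The synthesis and inactivation genes went both ways. In polysomal minus total RNA of abci20, 2 of 23 rose, the early oxidases GA3 at 0.70 and KAO1 at 0.82, and 2 fell, GA3OX3 at -1.82 and GA1, the first enzyme of the pathway, at -0.76 (background 22.1%). KAO1 at 0.97 and GA3OX3 at -2.08 passed without abci20 total replicate 1, whereas GA3 at 0.54 and GA1 at -0.67 did not (background 32.9%). In Col-0 KAO1 rose at 0.94, the 1 of 23 to pass (background 7.13%), with GA1 at -0.74. In polysomal minus monosomal RNA of Col-0, 3 of 23 fell and 0 rose, GA3OX3 at -1.40, GA2OX6 at -0.97 and GA3OX1 at -0.82 (background 12.5%). There, 3 fell and 1 rose without abci20 total replicate 1 (background 17.2%). In abci20 0 of 23 passed with all arrays (background 10.8%), GA2OX4 at -0.52 and GA3 at 0.43 having the smallest p. GA3OX3 fell in monosomal minus total RNA of abci20, at -1.29, the 1 of 23 to pass (background 14.7%), and GA2OX2 was at -0.68. Without that array GA3OX3 was at -1.55 and GA20OX2 also passed, at 0.82 (background 27.5%). In Col-0 GA2OX6 rose at 1.02, the 1 of 23 to pass (background 6.65%), and GA3OX1 was at 0.76. Without that array 2 rose and 1 fell there in Col-0 (background 11.4%).

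Of the 18 transcription factors, 5 rose and 1 fell in polysomal minus total RNA of abci20 (background 22.1%). MYB33, MYB65 and MYB101, activators in gibberellin responses, rose by 0.77, 1.47 and 0.83, SPT by 1.05 and PIF3 by 1.04, and ABI5, an abscisic acid response factor, fell, at -0.66. There, 7 rose and 0 fell without abci20 total replicate 1 (background 32.9%): SCL3, NF-YC9 and BZR1 were added, and PIF3 at 0.71 and ABI5 at -0.57 did not pass. In Col-0 0 of 18 passed (background 7.13%), BZR1 at 0.96 and SCL3, a GRAS protein that opposes DELLAs, at 0.70 having the smallest p. Without that array 2 rose and 1 fell there in Col-0 (background 13.1%). In polysomal minus monosomal RNA, SCL3 rose in abci20 at 0.81 and in Col-0 at 0.94, and MYB65 rose in abci20 at 1.56. These were 2 of 18 in abci20 (background 10.8%) and 1 of 18 in Col-0 (background 12.5%), where PIF3 was at 0.98 (adjusted p = 0.0836). When abci20 total replicate 1 was left out, 3 rose and 3 fell there in abci20 (background 14.4%). In Col-0 1 rose and 1 fell in that fit (background 17.2%). Of the 18, 0 passed in monosomal minus total RNA in abci20 (background 14.7%) or Col-0 (background 6.65%). NF-YC9 was at 1.25 in abci20 (adjusted p = 0.0519), with NF-YC3 at 0.46, and at 1.07 in Col-0, with ABI3 at -0.93. Without that array NF-YC9 at 1.95 (adjusted p = 9.1e-05) and MYB101 at 0.84 passed in abci20 (background 27.5%), and 1 rose and 1 fell in Col-0 (background 11.4%).

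Of the 10 responsive targets, 0 passed in any of these fraction comparisons. In abci20 the background was 22.1% for polysomal minus total, 10.8% for polysomal minus monosomal and 14.7% for monosomal minus total RNA. In Col-0 it was 7.13%, 12.5% and 6.65%, in the same order. The 2 with the smallest p were EXPA1 and EXPA8 in polysomal minus total RNA of abci20 (-0.70 and -0.53), and EXPA2 and EXPA8 in Col-0 (-0.97 and -0.46). They were GASA6 and XERICO in polysomal minus monosomal RNA of abci20 (0.68 and 0.36), and CP1 and XERICO in Col-0 (-0.76 and 0.51). They were GASA6 and GASA1 in monosomal minus total RNA of abci20 (-0.82 and 0.71), and CP1 and EXPA8 in Col-0 (0.51 and -0.46). When abci20 total replicate 1 was left out, GASA1 at 1.004 and EXPA2 at -1.31 passed in polysomal minus total RNA of abci20 (background 32.9%). GASA1 also passed in that fit in monosomal minus total RNA of abci20, at 1.25 (background 27.5%). CP1 passed there in polysomal minus monosomal RNA of Col-0, at the same difference (adjusted p = 0.0418, background 17.2%).

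Markers moved with the same comparisons. In polysomal minus total RNA of abci20, 3 of 6 seed coat markers were lower (TT12, MUM2 and TTG2). So were 2 of 6 endosperm markers (EPR1 at -0.90 and FWA at -1.02), 1 of 9 dry-seed markers (SESA2) and 1 of 5 green leaf markers (LHCB1.1). This held with and without abci20 total replicate 1 (background 22.1% and 32.9%). In Col-0, EPR1 at -0.80 and SESA2 were lower and 0 of 6 seed coat markers passed (background 7.13%). Without abci20 total replicate 1, 1 of 6 seed coat, 2 of 9 dry-seed and 1 of 6 endosperm markers were lower there (background 13.1%). The log2 values of the seed coat markers, summed per array, were 11.9 to 13.2 in polysomal and 13.1 to 16.8 in total RNA of abci20. In Col-0 they were 12.5 to 13.7 in polysomal and 13.7 to 14.96 in total RNA. A sum of log2 values is not an amount of RNA. The same sums of the endosperm markers were 19.3 to 20.4 in polysomal and 20.8 to 22.4 in total RNA of abci20. In Col-0 they were 18.9 to 19.9 in polysomal and 20.4 to 21.8 in total RNA. In polysomal minus monosomal RNA, 2 of 9 dry-seed markers and 1 of 5 green leaf markers were lower in each genotype. There, 1 of 6 seed coat markers was higher in abci20 (background 10.8% in abci20 and 12.5% in Col-0). Without abci20 total replicate 1, 2 of 6 seed coat and 1 of 6 endosperm markers were also lower there in Col-0 (background 17.2%). With all arrays 0 markers passed in monosomal minus total RNA of either genotype (background 14.7% in abci20 and 6.65% in Col-0). When abci20 total replicate 1 was left out, MUM2, TTG2 and EPR1 were lower and SESA4 higher there in abci20 (background 27.5%). In Col-0 1 of 6 endosperm markers was lower in that fit (background 11.4%). The part of seed coat or endosperm RNA in the fraction differences was not tested.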

How the data were processed

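Per the labels' protocols, plants were grown in a randomized block layout with bulked plants as replicates, RNA was purified with TriPure and RNeasy, and cRNA was made with a 3' one-cycle kit. The authors used RMA, per the submitters' processing notes, and the deposited values are log2 signals (0.301 to 12.71). Its version, the genome build and the probe-set definition are not given in the sources used here. Precision is limited by the number of arrays. Deposited values were used as they stood, without a filter.

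All 18 arrays were fitted with 1 coefficient per group in limma 3.58.1 (R 4.3.3; lmFit and eBayes, two-sided, 12 residual degrees of freedom), in 12 comparisons, with Benjamini-Hochberg adjustment over 27827 probe sets at 0.05. The test was checked on simulated data. Members and lists were chosen with earlier results of these data known. Named genes were the 9 members, ABCI20, every listed pathway gene past the threshold between genotypes, the 2 of each list with the smallest p in each fraction comparison, and the 2 probe sets most like each member; in fraction comparisons, CUL1, SNE, GA20OX2 and every other listed gene past the threshold there were named after their values were seen. Names were matched by locus to a RefSeq table. Same-numbered arrays were taken to share a block, over both genotypes, from the stated layout, and fractions were not paired by bulk within a genotype. Residuals of same-numbered arrays correlated over 0.1 in 9 of 45 pairs (-0.166 to 0.245), and in 4 of 18 pairs within a genotype. Between total RNA and the other fractions of a genotype they ran from -0.0604 to 0.0611. Alternatives were a replicate block, only the compared groups, quantile normalization, median centring, brighter probe sets (highest group mean above its median), array weights, a trended variance prior with robust estimation, and each array left out in turn. No sequences were used here.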

Additional observations from a re-analysis of the deposited data

How the results depend on the processing

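The counts of the 9 genes that passed moved with the settings. In polysomal RNA between genotypes the count of 0 became 1 when only the compared groups were fitted (RGL2) and 2 with array weights (RGL2 and RGL3). Over all 27827 probe sets, 123 passed in the main fit there, 423 with only the compared groups and 2657 with array weights. In total RNA the count of 0 became 1 with centring, the brighter probe sets, the variance trend and array weights. It ran from 0 to 1 when arrays were left out. Over all probe sets 932 passed in the main fit there, 1092 with centring and 1520 with the variance trend. The number was 1326 with array weights, 1701 of 13913 with the brighter probe sets, and 355 to 2640 with arrays left out. For the mean of the 3 fractions the count of 0 became 1 with the polysomal and monosomal arrays alone (background 4.67% and 3.33%). In polysomal minus total RNA of abci20 the count of 1 became 0 with only the compared groups and with quantile normalization. It became 3 with centring and 5 with array weights, and ran from 0 to 5 when arrays were left out. Over all probe sets 6149 passed in the main fit there, 1590 with only the compared groups and 2575 after quantile normalization. The number was 8587 with centring, 11135 with array weights, and 3076 to 9163 with arrays left out. In polysomal minus total RNA of Col-0 the count of 1 became 0 with the replicate block and with quantile normalization. It became 2 with only the compared groups, centring or the brighter probe sets, and 3 with array weights. It ran from 0 to 3 when arrays were left out (background 7.13% with all arrays and 13.1% without abci20 total replicate 1). In monosomal minus total RNA of abci20 the count of 1 became 0 with only the compared groups and with quantile normalization. It became 2 with centring and with the brighter probe sets, and 3 with array weights. It ran from 0 to 3 when arrays were left out (background 14.7% with all arrays and 27.5% without abci20 total replicate 1). In Col-0 the count of 0 became 1 with quantile normalization and with the brighter probe sets. It ran from 0 to 2 when arrays were left out (background 6.65% with all arrays and 11.4% without abci20 total replicate 1). For polysomal minus total RNA of Col-0 and monosomal minus total RNA of both genotypes, shares of all probe sets under the other settings are not given here. Counts in those settings are therefore not read as results about the 9 genes. In polysomal minus monosomal RNA of abci20 the count of 0 became 1 with array weights (RGA). Over all probe sets 2994 passed in the main fit there and 7029 with array weights. The count of 0 for the genotype difference of monosomal minus total RNA ran from 0 to 1 (background 0% with all arrays and 0.747% without abci20 total replicate 1). The replicate block ended the SLY1 call (adjusted p = 0.0515) and changed no other call of the 9 genes. The cause of these moves was not tested. By construction, fitting the compared groups alone takes the spread from fewer arrays. Leaving out abci20 total replicate 1 changed the standard error of RGL2 between genotypes in polysomal RNA from 0.417 to 0.247.

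Centring moved the median of all probe sets, for example to 0.34 in polysomal minus total RNA of abci20 and to -0.13 between genotypes in total RNA, so its values are relative to those medians. The differences that turned sign were small, and none had passed the test. Under centring, GAI and GID1A between genotypes in total RNA became -0.0207 and -0.115, GAI, RGA and GID1A in monosomal minus total RNA of abci20 became 0.258, 0.230 and 0.0719, GID1A in that comparison in Col-0 became 0.0782, and RGL2 in polysomal minus monosomal RNA of Col-0 became 0.0558. Under quantile normalization, GID1A between genotypes in polysomal RNA became 0.046, RGL2 and RGL3 in polysomal minus monosomal RNA of abci20 became -0.187 and -0.072, RGL3 and SLY1 in that comparison in Col-0 became -0.10 and -0.16, RGA in monosomal minus total RNA of abci20 became 0.16, GID1C in that comparison in Col-0 became -0.0201, and GAI in polysomal minus total RNA of Col-0 became -0.0765. With array weights, GAI and GID1A between genotypes in total RNA became -0.11 and -0.14, GID1A and SLY1 in polysomal RNA became 0.01 and -0.0024, RGL2 in polysomal minus monosomal RNA of abci20 became -0.0136, and GAI and RGA in monosomal minus total RNA of abci20 became 0.22 and 0.31. GID1B in the mean of the fractions became -0.0727 with the polysomal and monosomal arrays alone.

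When arrays were left out in turn, these differences crossed 0. Between genotypes in total RNA, GAI ran from -0.11 to 0.32 and GID1A from -0.11 to 0.18. In polysomal RNA, GID1A ran from -0.0693 to 0.0404, RGL1 from -0.272 to 0.0433 and SLY1 from -0.0172 to 0.0901. In the mean of the fractions GID1B ran from -0.0134 to 0.584. In polysomal minus total RNA of abci20, RGL3 ran from -0.0098 to 0.85 and GID1A from -0.0831 to 0.206, and in Col-0 GAI ran from -0.0074 to 0.361. In polysomal minus monosomal RNA of abci20, RGL1 ran from -0.10 to 0.38 and RGL2 from -0.11 to 0.21. In Col-0 RGL2 ran from -0.30 to 0.12, RGL3 from -0.0557 to 0.411 and SLY1 from -0.0202 to 0.281. In monosomal minus total RNA of abci20, RGL1 ran from -0.0275 to 0.449, GAI from -0.24 to 0.19, RGA from -0.39 to 0.36 and RGL3 from -0.20 to 0.66, and in Col-0 GID1C ran from -0.0621 to 0.172. The median standard error of a difference between groups of 3 was 0.291 over all probe sets, which limits what these arrays can show. No detection calls were used, so whether low signals such as those of RGL1 lie above background is not known.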
